A study of Mus musculus with 15 samples.

Results

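Toll-like receptors and their shared adaptor Myd88 were followed in mouse spleen after irradiation, with or without a burn and with or without extracellular vesicles from mesenchymal stem cells. The members were all rows of the count table named Tlr1 to Tlr9 or Myd88, taken by symbol whatever their values. Of these 10 names, 8 were in the table of 561 genes, namely Tlr1, Tlr2, Tlr3, Tlr4, Tlr5, Tlr8, Tlr9 and Myd88. Tlr6 and Tlr7 were not analysed here. Tlr5 had 7 to 24 counts per sample, with a mean of 14.3, and fell under the filter of a mean of 20 counts, so 7 members were tested among 426 genes.

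Toll-like receptors are sensors of microbial molecules. TLR1, TLR2, TLR4 and TLR5 sit on the cell surface, where TLR1 pairs with TLR2 to bind bacterial lipoproteins, TLR4 with its partner MD-2 binds lipopolysaccharide, and TLR5 binds flagellin. TLR3, TLR8 and TLR9 sit in endosomes and bind nucleic acids. TLR3 senses double-stranded RNA, TLR9 senses unmethylated CpG DNA, and the mouse TLR8 is a relative of the single-stranded RNA sensor TLR7 whose own ligand is less clear. All of these except TLR3 signal through MYD88, which gathers IRAK kinases and TRAF6 and ends in NF-kB and IRF transcription factors. In the spleen TLR9 is well known from B cells and plasmacytoid dendritic cells, and TLR4 from macrophages and other myeloid cells.

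The 15 samples formed 5 groups of 3, all female C57BL/6J mice that were 6 to 8 weeks old. Sham mice went through the procedure without burn or irradiation. The paper states this under its burn model, whose anaesthesia, shaving, morphine and fluid it does not describe for WBIR mice. In the WBIR groups against Sham, such a difference of handling and the irradiation cannot be told apart. WBIR mice received 9 Gy of whole-body irradiation, and RCI mice received 9 Gy together with a burn over 20% of the body surface. The WBIR+MSC-EVs and RCI+MSC-EVs mice were given, 72 hours after injury and by the vein, vesicles shed by cultured C57BL/6J bone marrow mesenchymal stem cells. Spleens were taken 48 hours later and red cells were lysed. The study's text gives saline to the untreated mice, whereas the labels name a vehicle (PBS) for RCI alone. The labels do not say whether the 3 samples of a group came from 3 mice, so p-values measure the spread between these samples, which may be technical.

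Counts came from a hybridisation panel that counts one barcoded probe pair per gene without amplification. Total counts were 90127 to 598872 (median 360995), and dividing each sample's counts by the geometric mean of the 14 reference genes of the panel gave the scaled counts used below, in units of an average sample of the series. Levels of different genes were not compared, since probe pairs differ in yield. The spleen label was checked against lymphocyte markers: the 8 B cell markers summed to between 16141 and 18004 scaled counts in Sham and to between 687 and 1497 in the 12 irradiated samples, and all 8 were lower in each injured group. The 8 T cell markers summed to between 8398 and 18921 in Sham and to between 2096 and 4574 after injury, with 7 or 8 of them lower. The 6 macrophage markers of the table summed to between 2002 and 3865 in Sham and to between 11261 and 34892 after injury, with 4 to 6 of them higher. The 6 neutrophil markers summed to between 7143 and 40418 in Sham and to between 1322 and 9182 after injury, and none of the values of the table was 0. Fewer cells of a type and less RNA per cell cannot be told apart in these bulk samples, and the part of this change of cell make-up in the results below was not tested. RCI replicate 3 stood apart from its group for most members, and most results that rest on it are given with and without it.

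The promoter windows of members that moved against Sham are shown because these genes moved in 1 direction in all 4 injured groups, upwards (Myd88, Tlr3 and Tlr8) or downwards (Tlr1 and Tlr9). Each runs from 250 bases before to 50 bases after a RefSeq start site of mouse build GRCm38.p6, 5′ to 3′ on the gene's strand. Capitals mark matches, on either strand and overlapping ones included, to 1 of 3 motifs. The NF-kB motif was searched as GGG followed, after 5 bases of any kind, by CC. The interferon response motif was searched as a pair of GAAA blocks with 2 bases of any kind between them. The ETS core was searched as GAGGAA, which reads as its reverse complement on the other strand.
Myd88, chr9:119339969-119340268, minus strand: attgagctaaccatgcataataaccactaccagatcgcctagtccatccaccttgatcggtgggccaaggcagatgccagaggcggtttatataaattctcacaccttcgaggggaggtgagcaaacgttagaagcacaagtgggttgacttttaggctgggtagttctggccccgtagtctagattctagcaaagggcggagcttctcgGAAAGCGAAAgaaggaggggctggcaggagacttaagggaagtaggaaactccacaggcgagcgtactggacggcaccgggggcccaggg
Tlr3, chr8:45410331-45410630, minus strand: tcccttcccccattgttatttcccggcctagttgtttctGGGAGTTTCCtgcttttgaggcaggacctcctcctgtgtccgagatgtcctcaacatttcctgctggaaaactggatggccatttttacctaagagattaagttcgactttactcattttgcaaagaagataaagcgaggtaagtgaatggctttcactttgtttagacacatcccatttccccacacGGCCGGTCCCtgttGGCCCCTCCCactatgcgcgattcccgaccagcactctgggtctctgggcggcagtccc
Tlr8, chrX:167264280-167264579, minus strand: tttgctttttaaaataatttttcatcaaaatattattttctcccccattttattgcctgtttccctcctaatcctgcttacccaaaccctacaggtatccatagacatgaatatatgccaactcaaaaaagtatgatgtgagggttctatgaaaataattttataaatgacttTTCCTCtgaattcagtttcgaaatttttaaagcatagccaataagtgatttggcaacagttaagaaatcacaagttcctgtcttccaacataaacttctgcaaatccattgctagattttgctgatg
Tlr1, chr5:64933509-64933808, minus strand: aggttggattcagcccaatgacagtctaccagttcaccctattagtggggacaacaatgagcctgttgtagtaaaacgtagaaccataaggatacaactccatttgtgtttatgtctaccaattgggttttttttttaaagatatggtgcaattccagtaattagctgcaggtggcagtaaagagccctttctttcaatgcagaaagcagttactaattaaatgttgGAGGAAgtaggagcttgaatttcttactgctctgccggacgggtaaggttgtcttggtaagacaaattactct
Tlr9, chr9:106222348-106222647, plus strand: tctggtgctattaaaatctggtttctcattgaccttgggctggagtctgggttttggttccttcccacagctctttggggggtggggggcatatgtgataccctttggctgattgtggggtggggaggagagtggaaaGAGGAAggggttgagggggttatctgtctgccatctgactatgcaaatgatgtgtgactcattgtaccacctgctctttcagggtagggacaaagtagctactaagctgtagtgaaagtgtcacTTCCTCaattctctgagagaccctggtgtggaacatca

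Windows were given for 7 of the 8 members present, all but Tlr4. Myd88 held the only interferon response match of the members, GAAAGCGAAA, beginning 40 bases before the start site, and 3.44% of the 32851 windows of the annotation held this motif. Tlr3 held 3 NF-kB matches and 50.8% of all windows held at least 1. Tlr2 and Tlr5 held NF-kB matches too. The ETS core stood 77 bases before the start in Tlr8, 23 bases before it in the second of the Tlr1 windows, and both 112 bases before and 13 bases after it in Tlr9, against 28.3% of all windows. The letters are a description of the windows and were not tied to the counts, and the ETS core occurred in members that rose and in members that fell.

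Against Sham, injury was followed by more Tlr4, Tlr8, Tlr3 and Myd88 mRNA and by less Tlr1 and Tlr9 mRNA, in each of the 4 injured groups. In WBIR, 6 of the 7 tested members passed edgeR's quasi-likelihood test at an adjusted p under 0.05, where 68.5% of all tested genes did. Of these, 4 were higher (21.6% of all genes) and 2 were lower (46.9%), and 6 members did not overlap with Sham (71.1%). The 6 calls in WBIR+MSC-EVs (67.8% of all genes) were again 4 higher (22.8%) and 2 lower (45.1%), and all 7 members were without overlap (69%). RCI gave 7 calls (69.5% of all genes), 5 higher (26.5%) and 2 lower (43%), and 7 members without overlap (64.6%). RCI+MSC-EVs gave 7 calls (65.3%), 5 higher (23.9%) and 2 lower (41.3%), and 7 without overlap (70.4%). With most genes of the panel called, these counts are no result about the members as a set. The members' median log2 fold change was 0.85 and 0.93 in WBIR without and with MSC-EVs and 1.39 and 1.22 in RCI without and with them, where the medians of all genes were -0.74, -0.61, -0.53 and -0.45. The 4 comparisons share the 3 Sham samples and are not independent of each other.

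**Figure D1:**
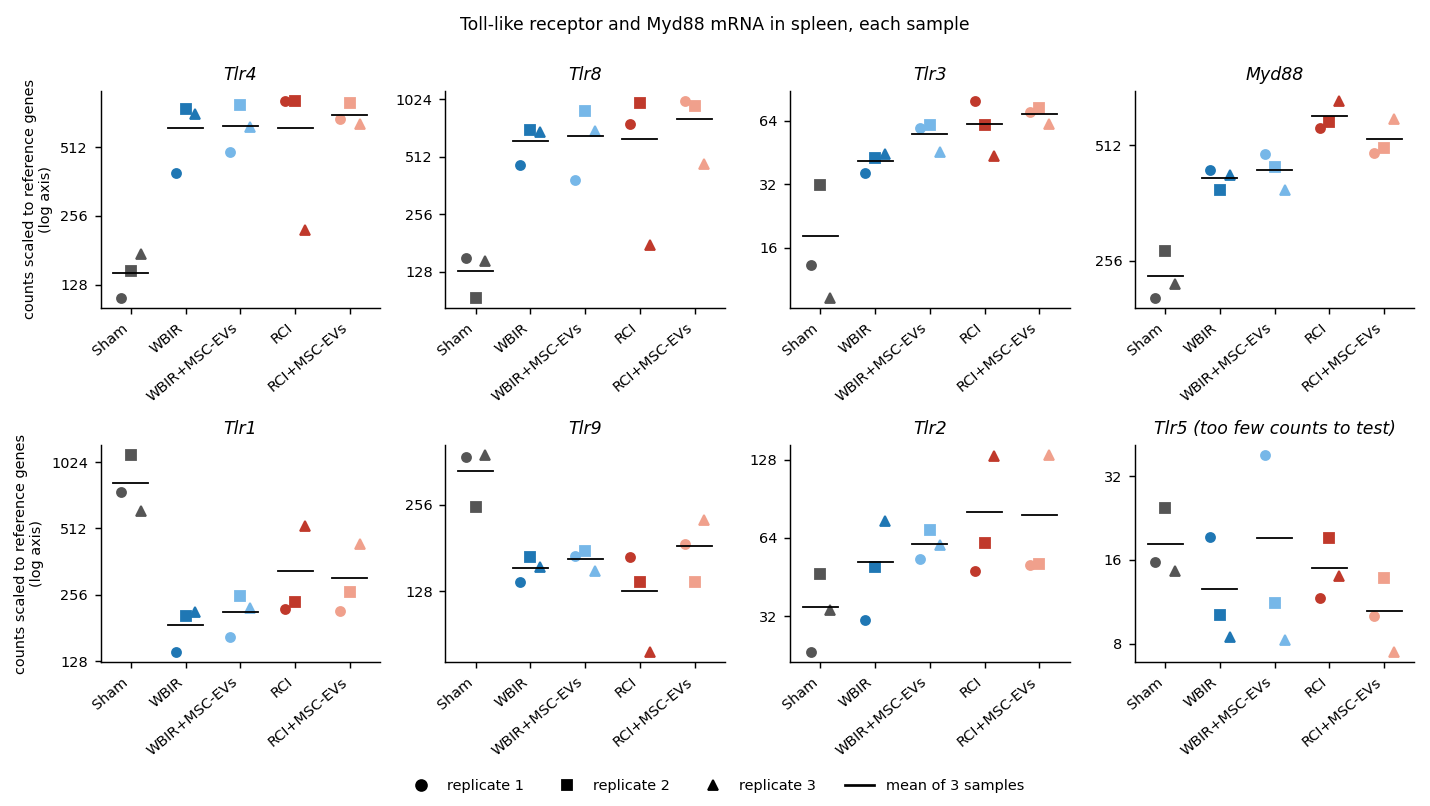
Scaled counts (log axis) of the 8 members in each of the 15 samples, by group, with symbols for the replicate number and a line at the mean of 3 samples. All 12 irradiated samples lie above the 3 Sham samples for Tlr4, Tlr8, Tlr3 and Myd88 and below them for Tlr1 and Tlr9, and RCI replicate 3 lies far under its group for Tlr4 and Tlr8.

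Among the surface receptors, Tlr4 rose by more than 2 on the log2 scale in all injured groups. Sham samples held 112, 147 and 174 scaled counts of Tlr4, in the order of their replicate numbers. WBIR samples held 392.5, 749 and 713, and WBIR+MSC-EVs samples held 486, 781 and 625. RCI samples held 818, 814 and 222, and RCI+MSC-EVs samples held 682, 798 and 645. No injured sample overlapped Sham, although RCI replicate 3 came close to the highest Sham sample. The log2 fold change was 2.10 ± 0.42 (SE) in WBIR, a 4.29-fold rise with an adjusted p of 0.000546 in edgeR. With MSC-EVs it was 2.13 ± 0.42 after WBIR and 2.30 ± 0.42 after RCI, and RCI alone gave 2.10 ± 0.42 (adjusted p = 0.000512, 0.000318 and 0.000548, edgeR).

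Tlr1, which works as a partner of TLR2, went the other way. Its scaled counts were 750.5, 1107 and 613 in Sham, and 140.3, 206 and 214 in WBIR. They were 165, 252 and 222 in WBIR+MSC-EVs. RCI samples held 222, 237 and 528, and RCI+MSC-EVs samples 215, 264 and 434. Every injured sample was below every Sham sample, and the third replicates of both burned groups were the highest of the 12. Tlr1 fell by 2.14 ± 0.38 (SE) on the log2 scale in WBIR, 4.39-fold, with an adjusted p of 0.000223 in edgeR. The log2 fold changes in WBIR+MSC-EVs and then in RCI without and with MSC-EVs were -1.93 ± 0.38, -1.32 ± 0.37 and -1.43 ± 0.37 (adjusted p = 0.000479, 0.00564 and 0.00369, edgeR). With TMM scaling over all genes the RCI value was -0.70 with an edgeR adjusted p of 0.138, and median-of-ratios scaling gave -0.68 (adjusted p = 0.157, edgeR), so that call depends on the scaling.

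Tlr2, the lipoprotein receptor, passed the test in both burned groups, and there depended on single samples. Its scaled counts were 23.2, 46.5 and 33.8 in Sham, 30.9, 49.6 and 74.1 in WBIR and 53.0, 68.5 and 59.9 in WBIR+MSC-EVs. They were 47.5, 61.1 and 133 in RCI and 50.4, 50.6 and 134 in RCI+MSC-EVs, and in both groups the third replicate stood far above the others. WBIR overlapped Sham and the other injured groups did not. The log2 fold change was 0.63 ± 0.50 (SE) in WBIR and 0.86 ± 0.50 in WBIR+MSC-EVs (adjusted p = 0.267 and 0.137, edgeR), and 1.27 ± 0.50 in RCI and 1.22 ± 0.50 in RCI+MSC-EVs (adjusted p = 0.0329 and 0.0432, edgeR). Without RCI replicate 3 the RCI value was 0.70 (adjusted p = 0.213, edgeR), and without RCI+MSC-EVs replicate 3 the RCI+MSC-EVs value was 0.59 (adjusted p = 0.300, edgeR). Leaving out Sham replicate 1 gave 1.04 in RCI and 0.99 in RCI+MSC-EVs (adjusted p = 0.117 and 0.139, edgeR). Leaving out Sham replicate 3 gave 1.29 and 1.23 (adjusted p = 0.0740 and 0.0895, edgeR), and the RCI+MSC-EVs call was also lost, at nearly the same value, without WBIR replicate 2, WBIR+MSC-EVs replicate 2 or WBIR+MSC-EVs replicate 3. The calls were lost as well with 7-gene scaling, with limma and in fits of only the groups compared, whereas WBIR+MSC-EVs was called with TMM scaling at 1.40 and with median-of-ratios scaling at 1.43, and WBIR with the latter at 1.28 (adjusted p = 0.0357, 0.0314 and 0.0493, edgeR). Over all alternatives the adjusted p was 0.00643 to 0.213 in RCI and 0.0177 to 0.300 in RCI+MSC-EVs.

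Tlr5, the flagellin receptor, had few counts in every sample. Its scaled counts were 15.7, 24.5 and 14.6 in Sham. The 12 injured samples ranged from 7.45 to 38.3 with a median of 11.4 and overlapped Sham. With so few counts a change of Tlr5 was not tested.

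Among the endosomal receptors, Tlr8 had the largest fitted rise of the tested members in each comparison with Sham, by less than 1 SE above Tlr4. Sham samples held 151, 93.1 and 146 scaled counts, WBIR samples 462, 708 and 689, and WBIR+MSC-EVs samples 388, 885 and 702. RCI samples held 762, 976 and 176, and RCI+MSC-EVs samples 1011, 943 and 470.4. The groups did not overlap with Sham, but RCI replicate 3 exceeded the highest Sham sample by little. The log2 fold changes were 2.24 ± 0.52 (SE), 2.33 ± 0.53, 2.27 ± 0.53 and 2.62 ± 0.53 in WBIR without and with MSC-EVs and then in RCI without and with MSC-EVs (adjusted p = 0.00171, 0.00134, 0.00147 and 0.000636, edgeR), or 4.71-, 5.03-, 4.84- and 6.14-fold.

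Tlr3, the member that signals without MYD88, was low in Sham, with 12 to 16 counts before scaling. Its scaled counts were 13.3, 31.8 and 9.22 in Sham, 36.0, 42.5 and 44.7 in WBIR and 58.9, 61.2 and 45.6 in WBIR+MSC-EVs. They were 79.8, 61.1 and 43.7 in RCI and 70.6, 73.6 and 61.7 in RCI+MSC-EVs. All injured samples exceeded Sham replicate 2, the highest Sham sample, whose value stands for 13 counts divided by a scale factor of 0.408. Tlr3 passed the filter, with a mean of 53.1 counts, only through the injured samples. Its Sham counts were as low as those of Tlr5 in Sham (10 to 19), which was not tested. No background was subtracted, so the size of the rise is uncertain, and the lack of overlap is a description only. The log2 fold change was 1.34 ± 0.40 (SE) in WBIR and 1.75 ± 0.40 in WBIR+MSC-EVs, and 1.91 ± 0.40 in RCI and 2.07 ± 0.40 in RCI+MSC-EVs (adjusted p = 0.00798, 0.0014, 0.000668 and 0.000412, edgeR). When the fit held WBIR and Sham alone, the WBIR value was 1.32 with an edgeR adjusted p of 0.0502.

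Tlr9, the CpG DNA sensor, fell in all injured groups. Its scaled counts were 375, 252 and 383 in Sham, 138, 168 and 156 in WBIR and 171, 177 and 151 in WBIR+MSC-EVs. They were 169, 138 and 78.6 in RCI and 187, 138 and 227 in RCI+MSC-EVs. Sham was above all 12 injured samples, with RCI replicate 3 the lowest and RCI+MSC-EVs replicate 3 the nearest to Sham. Tlr9 fell by 1.13 ± 0.29 (SE) on the log2 scale in WBIR (adjusted p = 0.00275, edgeR). The values in WBIR+MSC-EVs and then in RCI without and with MSC-EVs were -1.03 ± 0.29, -1.40 ± 0.29 and -0.88 ± 0.28 (adjusted p = 0.00566, 0.000632 and 0.0137, edgeR). With TMM scaling they were -0.57 in both WBIR and WBIR+MSC-EVs and -0.61 in RCI+MSC-EVs (adjusted p = 0.119, 0.123 and 0.101, edgeR), so only the RCI call was kept by that scaling, as with median-of-ratios scaling. Without RCI+MSC-EVs replicate 2 the last value was -0.71 (adjusted p = 0.0659, edgeR).

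Myd88, the adaptor, rose in every injured group and had the smallest SE of the members. Its scaled counts were 205, 272 and 223 in Sham, 440.1, 391 and 427 in WBIR and 486, 449.7 and 391 in WBIR+MSC-EVs. They were 567, 589.7 and 669 in RCI and 489, 503 and 600.2 in RCI+MSC-EVs. The groups were ordered, by their means, from Sham through WBIR, WBIR+MSC-EVs and RCI+MSC-EVs to RCI. In this order the WBIR groups without and with MSC-EVs overlapped, as did the RCI groups. All injured samples lay above Sham, and all 6 burned samples lay above all 6 irradiated samples without a burn. The log2 fold change was 0.85 ± 0.18 (SE) in WBIR and 0.93 ± 0.18 in WBIR+MSC-EVs (adjusted p = 0.000764 and 0.000447, edgeR). It was 1.39 ± 0.18 in RCI, 2.62-fold, and 1.19 ± 0.18 in RCI+MSC-EVs (adjusted p = 1.38e-05 and 5.96e-05, edgeR). With TMM scaling the WBIR and WBIR+MSC-EVs values were 1.49 and 1.45.

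**Figure D2:**
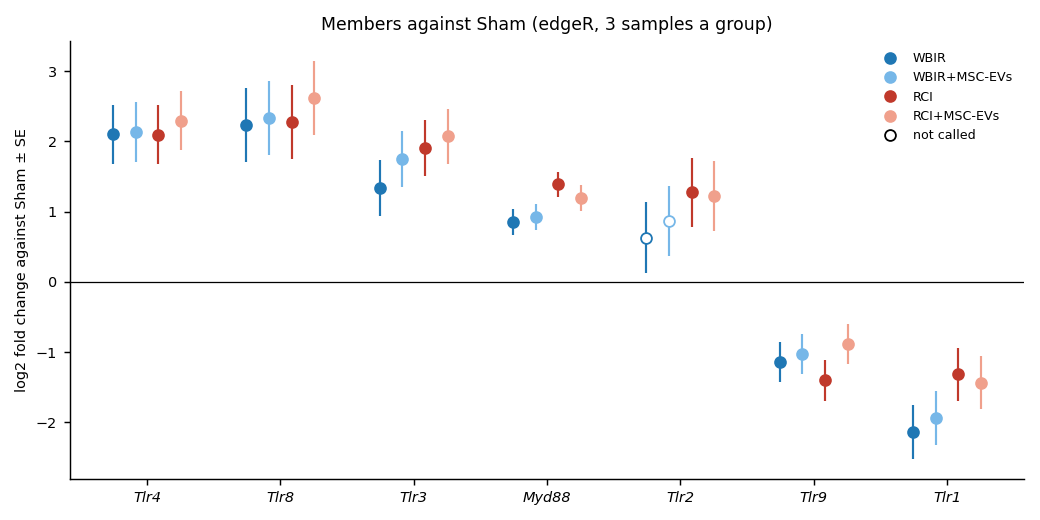
Log2 fold changes against Sham (vertical axis, bars are ± SE from edgeR, 3 samples a group) of the 7 tested members in the 4 injured groups, open symbols for values that did not pass the test. Tlr4 and Tlr8 lie above 2 in all groups, Tlr1 and Tlr9 lie below 0 in all groups, and the open symbols are Tlr2 in WBIR and WBIR+MSC-EVs.

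With scaling to the reference genes the panel's median gene fell after injury, so the values against Sham depend on the scaling. The reference genes themselves moved in both directions. In WBIR and RCI against Sham, the log2 differences of scaled counts were 2.83 and 3.07 for G6pdx and 1.29 and 1.65 for Gapdh. They were -1.70 and -1.93 for Polr1b, -0.55 and -2.53 for Tubb5, and -0.15 and -0.06 for Sdha. Which scaling is nearer to the mRNA levels was not tested. TMM scaling moved the median log2 fold change of all genes in WBIR from -0.74 to -0.03 and the split of calls from 92 higher and 200 lower to 135 higher and 150 lower. TMM scaling raised the log2 fold changes of the 7 tested members by 0.55 to 0.68 in WBIR, 0.45 to 0.57 in WBIR+MSC-EVs, 0.29 to 0.61 in RCI and 0.23 to 0.39 in RCI+MSC-EVs. The direction of all 7 tested members in the 4 comparisons with Sham was kept under TMM, median-of-ratios and the scaling to 7 reference genes. Ratios of 2 members within a sample need no scaling. The log2 ratio of Tlr4 to Tlr1 counts was -2.91 to -1.82 in Sham and rose to 1.48 to 1.87 in WBIR and 1.49 to 1.63 in WBIR+MSC-EVs. It was 0.57 to 1.67 in RCI+MSC-EVs and -1.25 to 1.88 in RCI, where replicate 3 gave the lowest value. All 12 injured samples lay above Sham for this ratio, and also for Tlr8 over Tlr9, which was -1.44 to -1.32 in Sham and 1.05 or more in each injured sample. That separation was fixed in advance, since Tlr4 and Tlr8 exceeded Sham and Tlr1 and Tlr9 lay below it in all 12. Nor does a ratio show which of its members moved.

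**Figure D3:**
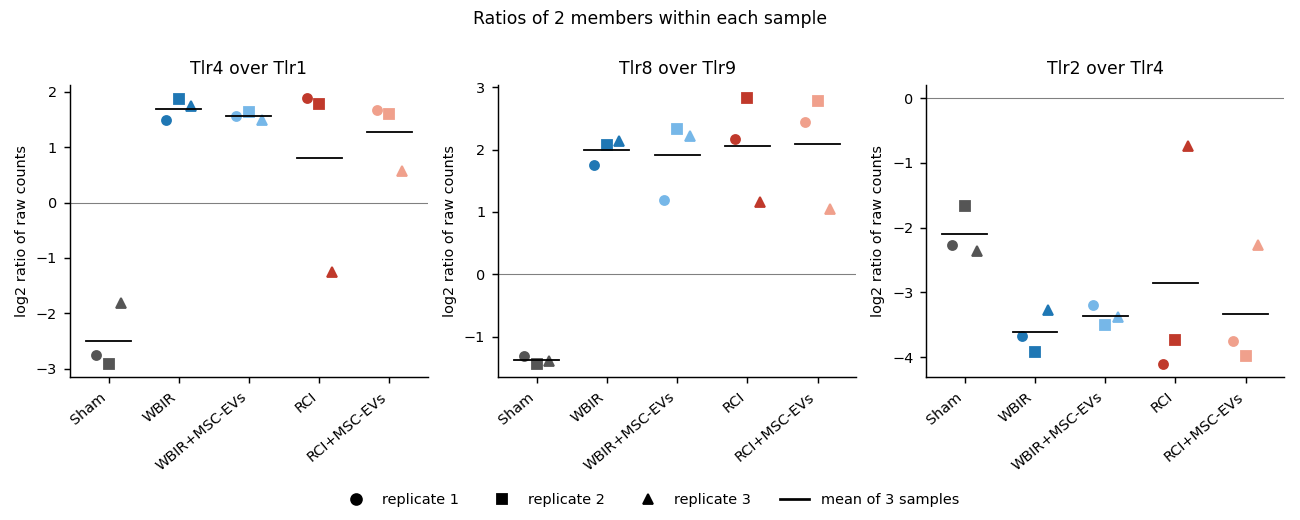
Log2 ratios of raw counts of 2 members in each sample (vertical axis), by group, with symbols for the replicate number and a line at the mean of 3 samples. Tlr4 over Tlr1 and Tlr8 over Tlr9 are negative in Sham and, except for Tlr4 over Tlr1 in RCI replicate 3 at -1.25, positive after injury, while Tlr2 over Tlr4 ranges from -4.10 to -0.74 in RCI. Because probe pairs differ in yield, the sign does not show which gene had more mRNA.

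The order of the group means differed by member. Tlr4 means were 144 ± 31.0 (SD, n = 3) in Sham, 618 ± 196 in WBIR, 618 ± 343 in RCI, 631 ± 148 in WBIR+MSC-EVs and 708 ± 79.7 in RCI+MSC-EVs. Tlr8 means were 129.9 ± 31.98 in Sham, 619.6 ± 137 in WBIR, 638 ± 414 in RCI, 659 ± 251 in WBIR+MSC-EVs and 808 ± 294 in RCI+MSC-EVs. For both receptors neighbouring injured groups in this order overlapped. Tlr3 means rose from 18.1 ± 12.1 in Sham over 41.1 ± 4.49 (WBIR), 55.2 ± 8.39 (WBIR+MSC-EVs) and 61.5 ± 18.1 (RCI) to 68.6 ± 6.16 (RCI+MSC-EVs), and of these neighbours WBIR and WBIR+MSC-EVs did not overlap. Tlr1 means fell from 824 ± 255 in Sham over 329 ± 172 (RCI), 305 ± 115 (RCI+MSC-EVs) and 213 ± 44.4 (WBIR+MSC-EVs) to 187 ± 40.3 (WBIR). Neighbouring injured groups overlapped for Tlr1.

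RCI replicate 3 differed from the other RCI samples by gene rather than by one factor. Against the mean of RCI replicates 1 and 2 its Tlr4 was 3.67-fold lower, its Tlr8 4.89-fold lower and its Tlr9 1.94-fold lower, whereas its Tlr1 was 2.30-fold and its Tlr2 2.46-fold higher. Myd88 differed by 1.16-fold. The same library had the lowest B cell marker sum, 687, and the highest macrophage marker sum, 34892, of all samples. Among the irradiated samples it also had the lowest sums of natural killer (108), neutrophil (1322), dendritic cell (278) and platelet and endothelial markers (1205). Its T cell marker sum was 2112, where the lowest irradiated sample had 2096. The part of these differences in the member values was not tested. RCI+MSC-EVs replicate 3 shared the high Tlr1 and Tlr2 and the lower Tlr8, with a macrophage marker sum of 19918 beside 19294 and 19618 in its group. Without RCI replicate 3 the log2 fold change in RCI rose to 2.50 for Tlr4 and 2.72 for Tlr8 and moved to -1.84 for Tlr1.

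Adding a burn to irradiation was examined by comparing RCI with WBIR and by averaging that difference over treated and untreated mice. The paper's methods describe anaesthesia, shaving, morphine and fluid for RCI mice but not for WBIR mice. These and the burn cannot be told apart in either comparison. No member passed the test in RCI against WBIR, where 0.704% of all genes did. Myd88 came nearest, with 608 ± 53.4 (SD, n = 3) scaled counts in RCI and 419 ± 25.5 (SD, n = 3) in WBIR. Its log2 difference was 0.54 ± 0.18 (SE), with a p of 0.00902 and an adjusted p of 0.132 in edgeR, and DESeq2 gave an adjusted p of 0.0464. With TMM, median-of-ratios and 7-gene scaling the difference was 0.40, 0.42 and 0.23 (adjusted p = 0.312, 0.306 and 0.681, edgeR). Tlr1 was higher in RCI by 0.82 ± 0.37, with a p of 0.0446 and an adjusted p of 0.271 in edgeR. These were the 2 members with an unadjusted p under 0.05, as had 16.7% of all genes. Myd88 and Tlr1 were the 2 members whose groups did not overlap, against 27% of all genes. For Tlr1 the difference was 0.29 without RCI replicate 3. Tlr2 differed by 0.64 ± 0.47 (SE), with overlapping groups and an adjusted p of 0.53 in edgeR, and by 0.059 without RCI replicate 3. Tlr4 and Tlr8 differed by 0.04 or less on the log2 scale, with 95% intervals of -0.86 to 0.85 and -1.02 to 1.10, and without RCI replicate 3 they were higher in RCI by 0.40 and 0.49 (adjusted p = 0.456 and 0.482, edgeR).

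Averaged over both treatments, Myd88 was higher in the burned mice by 0.40 ± 0.13 (SE) on the log2 scale, 1.32-fold with a 95% interval of 1.10 to 1.59. The p was 0.00637 and the adjusted p 0.0617 in edgeR, so Myd88 did not pass, and 3.05% of all genes did. All 6 burned samples exceeded all 6 others, which held for no other member (9.62% of all genes were without overlap). DESeq2, the fit of the 4 irradiated groups alone and the fit without Sham replicate 2 each called Myd88 (adjusted p = 0.0195, 0.0283 and 0.0273, the last 2 by edgeR). With TMM scaling the edgeR value was 0.16 with an adjusted p of 0.621, so the size also depends on the scaling. Tlr1 was higher by 0.66 ± 0.26, with a p of 0.0245 and an adjusted p of 0.126 in edgeR, and by 0.40 without RCI replicate 3. The other 5 tested members had p-values from 0.0991 to 0.783.

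Treatment with MSC-EVs moved no member past the threshold in either injury. In WBIR+MSC-EVs against WBIR, 0 of 7 members and 0% of all genes passed, and no member had an unadjusted p under 0.05 in edgeR, where 2.58% of all genes did. DESeq2 also called 0. The log2 differences ran from 0.03 in Tlr4 to 0.41 in Tlr3, with 95% intervals reaching from -0.97 to 1.27, or from 0.512-fold to 2.40-fold. Tlr3 was the member whose groups did not overlap (8.92% of all genes), with WBIR samples up to 44.7 and WBIR+MSC-EVs samples from 45.6, and its p was 0.272 in edgeR.

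When treated RCI mice were set against untreated ones, 0 of 7 members passed, again as 0% of all genes, none had an unadjusted p under 0.05 in edgeR (3.29% of all genes) and DESeq2 called 0. The log2 differences ran from -0.20 in Myd88 to 0.52 in Tlr9, with 95% intervals reaching from -1.06 to 1.41, or from 0.480-fold to 2.65-fold. Tlr9 had the smallest p, 0.0885, with 184 ± 44.4 (SD, n = 3) scaled counts in RCI+MSC-EVs and 128 ± 45.7 (SD, n = 3) in RCI, and the groups overlapped. This Tlr9 difference was 0.26 without RCI replicate 3, and 0.26 to 0.77 over all left-out samples. All groups of the 7 members overlapped in this comparison, against 10.8% of genes that did not. Averaged over both injuries the differences were -0.06 to 0.31 with edgeR p-values of 0.141 or more, and 0% of all genes were called. A test of whether MSC-EVs acted differently in RCI and WBIR gave p-values of 0.299 or more in edgeR for the members, and 0% of all genes were called. With same-numbered samples of an injury taken as pairs, edgeR again called 0 members and 0 of all genes in either injury. No member and 1.64% (WBIR) and 3.76% (RCI) of all genes then had an unadjusted p under 0.05, and the smallest p of a member was 0.0757, for Tlr8 in RCI. Tlr1 and Tlr3 were higher with MSC-EVs in all 3 WBIR pairs (32.6% of all genes moved 1 way in all pairs), and in all 3 RCI pairs Myd88 was lower and Tlr9 was higher (39% of all genes), with Tlr9 at 137.8 and 137.9 in the second pair. These p-values do not show that treated and untreated mice were alike.

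**Figure D4:**
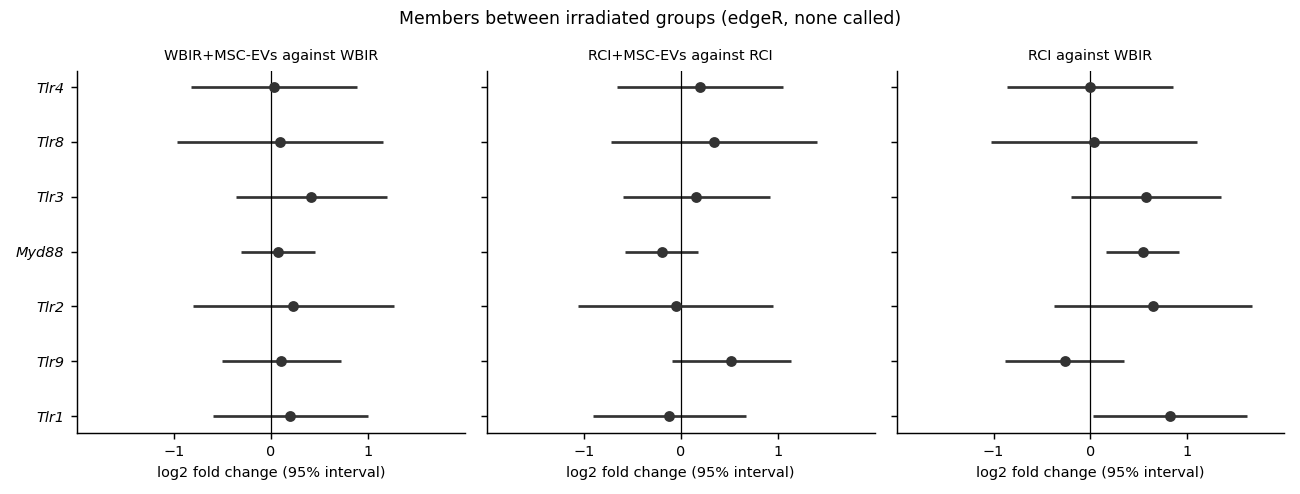
Log2 fold changes with 95% intervals (horizontal axis, edgeR, 3 samples a group) of the 7 tested members in WBIR+MSC-EVs against WBIR, RCI+MSC-EVs against RCI and RCI against WBIR. None passed the test, and the intervals of Myd88 and Tlr1 in RCI against WBIR are the only ones drawn that leave out 0.

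The genes whose pattern over the 15 samples was most like each member were found by the root mean square difference of log2(scaled count + 1) after each gene was centred on its own mean. Smaller values mean closer patterns, and the median over all other tested genes was 0.80 to 1.39, depending on the member. For Tlr4 the closest were Trem2 (0.25), a myeloid surface receptor, and Fcgr3 (0.26), an Fc receptor. For Tlr8 they were the complement genes C6 (0.25) and C1qa (0.26), and for Tlr3 the myeloid adaptor Tyrobp (0.28) and Tnfrsf11a (0.32). Among the falling members, Tlr9 was closest to Il16 (0.24) and to Btk (0.30), a kinase of B cell receptor signalling, and Tlr1 was closest to Relb (0.36) and Syk (0.38). Myd88 lay nearest to the proteasome genes Psmc2 (0.18) and Psmb7 (0.18), and Tlr2 to Batf (0.40) and Psmb7 (0.43). Within the family, Tlr4 and Tlr8 were the nearest to each other at 0.33. All points share their libraries and the large gap between Sham and injured samples. RCI replicate 3 is among the samples used, and no likeness values without it are given.

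The other genes of the pathway were taken from a list of 56, of which 43 were in the table and 37 were tested. Without MSC-EVs, 3 were higher and 19 lower in WBIR, and 7 and 14 in RCI. With MSC-EVs, 4 were higher and 19 lower in WBIR mice, and 7 and 15 in RCI mice. Of all tested genes, 21.6% were higher and 46.9% lower in WBIR, 26.5% and 43% in RCI, 22.8% and 45.1% in WBIR+MSC-EVs, and 23.9% and 41.3% in RCI+MSC-EVs. With so many genes called, the counts of the list and of its roles are descriptions and no result about them. The median log2 fold change of the list was -0.85 and -0.42 without MSC-EVs and -0.76 and -0.39 with them, beside the medians of all genes given above. With TMM scaling the counts were 8 higher and 10 lower in WBIR and 11 and 12 in RCI, and in WBIR+MSC-EVs they were 8 and 11. Without RCI replicate 3 the counts were 10 and 18 in RCI, 7 and 21 in WBIR and 8 and 21 in WBIR+MSC-EVs.

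Of the 4 accessory receptors tested, 1 was higher in WBIR and 2 in each of the other groups, and none was lower. Without RCI replicate 3 these counts were 2 in WBIR and 4 in RCI, and with TMM scaling they were 3 in both. Ly96, which encodes MD-2, the lipopolysaccharide-binding partner of TLR4, had log2 fold changes of 1.97, 2.09, 2.29 and 2.42 in WBIR without and with MSC-EVs and then in RCI without and with MSC-EVs (largest adjusted p = 3.97e-05, edgeR), close to those of Tlr4. Of the 6 adaptors and brakes, 4 were lower in WBIR (2 with TMM scaling) and 2 in RCI. Without RCI replicate 3, Tollip and Irak3 were among those lower in WBIR (adjusted p = 0.0201 and 0.037, edgeR). Tnfaip3 in RCI was then lower too, at -1.82 (adjusted p = 0.00191, edgeR). Sigirr, an inhibitory relative of the receptors, fell by 3.38 on the log2 scale in WBIR, the largest fall of its role, and had values of -3.02, -2.85 and -2.75 in the other groups. Of the 11 kinases and ligases, 9 were lower in WBIR and 7 in RCI, beside 46.9% and 43% of all genes. In RCI+MSC-EVs 1 was higher and 7 were lower, beside 23.9% and 41.3% of all genes. Without RCI replicate 3, Irak4 was higher in WBIR at 0.55 and in RCI at 0.75 (adjusted p = 0.0451 and 0.0176, edgeR). With TMM scaling Irak4 was higher in WBIR at 1.24 and in RCI at 1.02 (adjusted p = 2.57e-05 and 0.000122, edgeR). Btk, Irak1, Tbk1 and Chuk did not pass in WBIR with that scaling (adjusted p = 0.222, 0.459, 0.173 and 0.776, edgeR). Ikbkb, the IKK-beta kinase that releases NF-kB, had log2 fold changes of -2.23, -2.24, -1.63 and -1.47 in the same order, and without Sham replicate 2 these were -1.50, -1.50, -0.89 and -0.74.

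Of the 9 transcription factors, 1 was higher and 5 were lower in WBIR, and 1 and 3 in RCI. With TMM scaling 2 were higher and 1 was lower in both, and without RCI replicate 3 the RCI counts were 2 and 5. Irf7, which drives interferon genes downstream of endosomal receptors, was the one that rose, with log2 fold changes of 2.10, 2.11, 2.33 and 2.39 in the order of groups given for Ly96 (largest adjusted p = 8.88e-05, edgeR). Irf3, the factor used by TLR3 and TLR4 for interferon, fell, with values of -2.23, -1.90, -1.65 and -1.91. Ctss, cathepsin S, a protease that helps to process endosomal receptors, was the only tested gene of its role and had values of 1.53, 1.67, 1.93 and 2.17 (largest adjusted p = 0.00703, edgeR). Of the 6 induced cytokines tested, 1 was lower in WBIR, namely Il12a, a subunit of interleukin-12, with a log2 fold change of -3.80.

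In RCI, 3 induced cytokine genes were higher than in Sham and 2 were lower, and the genes other than Tnf and Il12a are named after their values were seen. Ccl2, a monocyte chemokine, had a log2 fold change of 4.97, and Cxcl10, an interferon-induced chemokine, had 1.95 (adjusted p = 0.000375 and 0.00315, edgeR). Without RCI replicate 3 these were 3.10 and 1.41. Neither gene passed in WBIR, but this depended on the setting. Without RCI replicate 3 the WBIR value of Ccl2 was 1.81 and that of Cxcl10 0.89 (adjusted p = 0.0201 and 0.0921, edgeR). With TMM scaling they were 2.35 and 1.51 (adjusted p = 0.0754 and 0.025, edgeR). Tnf in RCI had 1.75 (adjusted p = 0.0206, edgeR), but 0.46 without RCI replicate 3 (adjusted p = 0.387, edgeR) and 1.35 without Sham replicate 3 (adjusted p = 0.0847, edgeR). The replicate block (1.47, adjusted p = 0.0592, edgeR) and the fit of only the groups compared (adjusted p = 0.0829, edgeR) also lost this call. In WBIR its value was -0.51. Il12a and Ccl5, a lymphocyte chemokine, were lower, with -2.73 and -1.80. Tnf was also the only list gene called for the burn averaged over treatment, at 1.76 (adjusted p = 0.0472, edgeR), and without RCI replicate 3 this was 1.11 (adjusted p = 0.0552, edgeR). That call was also lost under all 3 other scalings (adjusted p = 0.0607 to 0.0951, edgeR), with the replicate block (adjusted p = 0.0605, edgeR), with limma (adjusted p = 0.0678) and without any 1 of the WBIR, WBIR+MSC-EVs or RCI+MSC-EVs samples. No list gene was called in RCI against WBIR or in the MSC-EV comparisons by edgeR, where 12 of 37 had an unadjusted p under 0.05 in RCI against WBIR (16.7% of all genes), 1 of 37 in WBIR+MSC-EVs against WBIR (2.58%) and 1 of 37 in RCI+MSC-EVs against RCI (3.29%).

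**Figure D5:**
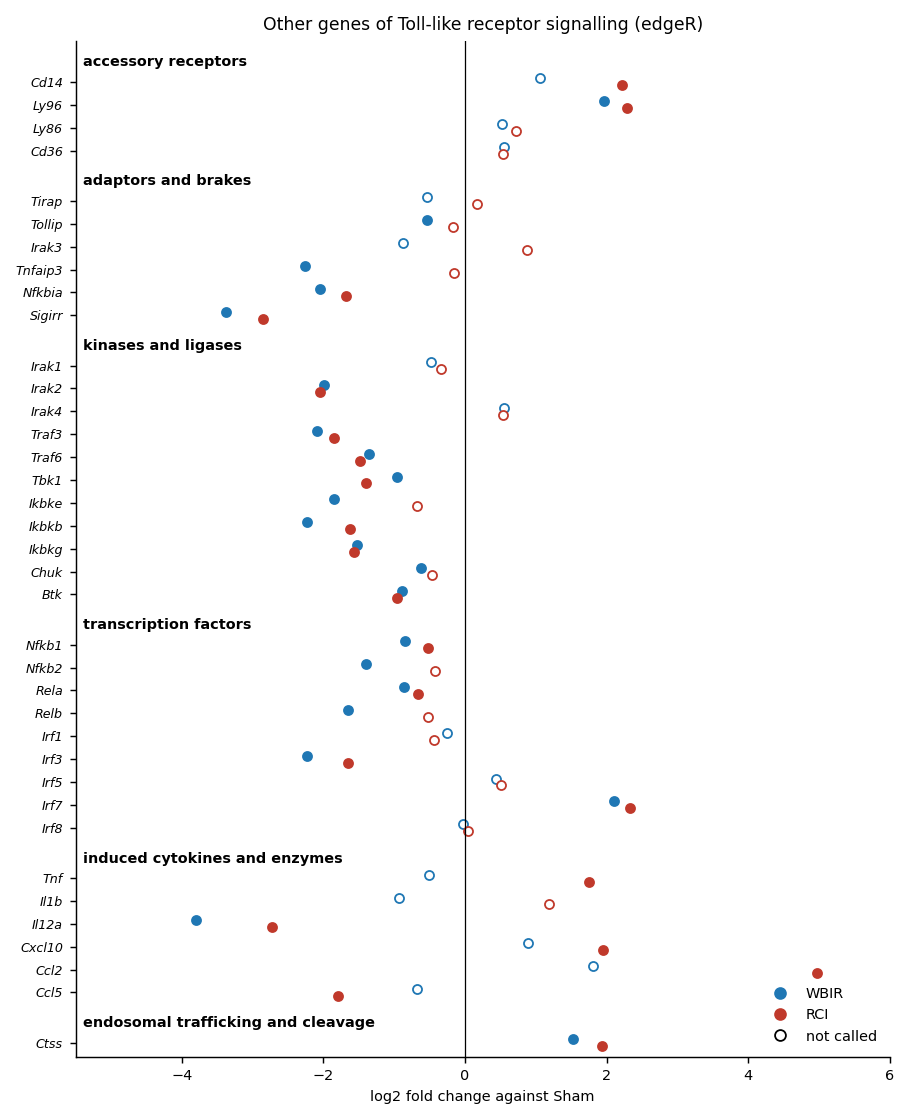
Log2 fold changes against Sham (horizontal axis, edgeR) of the 37 tested genes of the pathway list, by role, in WBIR and RCI, open symbols for values that did not pass the test. Ly96, Irf7 and Ctss lie to the right of 0 in both groups, whereas Sigirr, Il12a, Ikbkb and Irf3 lie to the left.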

How the data were processed

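The authors hybridised 100 ng of spleen RNA per sample to the nCounter Mouse Immunology Panel and used nSolver for their own normalisation and tests. The deposited values are whole numbers with unequal sample totals and were taken as raw counts of barcodes for each gene. The smallest of the 8415 values was 1, and whether a floor was set before deposit is not known. Positive and negative control probes and cartridge were not used here, so no background was subtracted. Scaling used the geometric mean of 14 reference genes. The quasi-likelihood test of edgeR was run on endogenous genes averaging at least 20 counts (edgeR 4.0.16, R 4.3.3; robust, 1 coefficient per group, all 15 samples, two-sided), with Benjamini-Hochberg adjustment over the 426 genes of a comparison and calls at an adjusted p under 0.05. SE is the absolute log2 fold change over the square root of F. The common dispersion was 0.110. The test was also run on simulated counts, with the same dispersion for all genes and unchanged reference genes. The reference genes moved in these data, so no conclusion is drawn from that run. No 2 libraries of a group were duplicates by a chi-square test of their counts (lowest chi-square per degree of freedom 6.72). Alternatives were TMM, median-of-ratios and 7-gene scaling, other filters (none, or a mean of 50 counts), DESeq2 1.42.0, limma 3.58.1 on log2(scaled count + 10), a replicate block, only the groups compared, and leaving out each sample. Same-numbered treated and untreated samples of an injury deviated together (6 of 6 pairs, r = 0.22 to 0.67). Some differently numbered pairs did so as well. Replicates 2 and 3 of WBIR gave r = 0.51 and 0.30 with replicates 3 and 2 of WBIR+MSC-EVs. Replicates 1 and 2 of RCI gave 0.35 and 0.30 with replicates 2 and 1 of RCI+MSC-EVs. The other differently numbered pairs within an injury had a negative r. Whether the numbers pair the samples is therefore not known. A block on the number within each injury was added for the MSC-EV comparisons. This block and the pathway counts under other scalings and without RCI replicate 3 were chosen after seeing the data. Sequences are RefSeq's for GRCm38.p6. The members, gene lists and motifs were chosen with earlier results of these data known. Named were all members, and of the pathway list, by role, the largest called rise and fall in WBIR against Sham and any gene called without Sham.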

Additional observations from a re-analysis of the deposited data

How the results depend on the processing

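Members called against Sham numbered within 1.5 times the reported counts in all settings. In RCI against WBIR the count of 0 became 1 with DESeq2, and for the burn averaged over treatment it became 1 with DESeq2, with only the groups compared, and without Sham replicate 2 (range 0 to 1 over left-out samples), each time Myd88. Directions were kept in all comparisons with Sham. Small, uncalled differences changed sign. In WBIR+MSC-EVs against WBIR these were Tlr4 (-0.073 with TMM, -0.065 with median-of-ratios, -0.018 with 7-gene scaling), Myd88 (-0.033 and -0.023 with the first and second of these) and Tlr8 (-0.00855 with TMM), and over left-out samples Tlr2 (-0.022 to 0.59), Tlr4 (-0.21 to 0.19) and Tlr8 (-0.18 to 0.36). In RCI+MSC-EVs against RCI, Tlr2 was 0.038 with 7-gene scaling, and left-out samples gave Tlr1 -0.46 to 0.41, Tlr2 -0.68 to 0.53, Tlr3 -0.042 to 0.40, Tlr4 -0.20 to 0.46 and Tlr8 -0.10 to 0.79. In RCI against WBIR, Tlr8 was -0.23 with TMM and median-of-ratios, -0.25 with 7-gene scaling and limma, and -0.40 to 0.49 over left-out samples, and Tlr4 -0.26 to 0.40. The cause was not tested. Over all groups no pairing by replicate number was seen (11 of 30 same-numbered pairs correlated over 0.1, and 8 of 15 samples best with their own number). With 3 samples a group this does not show that there was none. The replicate block gave -0.084 for Tlr8 in RCI against WBIR and left every count of members called as it was, and the block within each injury changed no call of a member. Depth was lowest for Tlr5 (7 to 24 counts) and for Tlr3 in Sham (12 to 16 counts).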
